A study of Mus musculus with 3 samples.

Results

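Mitochondrial ribosomal protein genes were followed through RNA sequencing of splenic macrophages from mice that carried an acute myeloid leukemia. The members were chosen by mouse symbol, Mrpl or Mrps followed by a digit and no pseudogene, at 1 FPKM or more in any library (FPKM is the number of fragments scaled by gene length and by mapped fragments). They are 78 of the 17615 genes listed in the deposited tables, 49 with Mrpl and 29 with Mrps symbols, and every listed gene with such a symbol passed the minimum. Recipients in all groups were C57BL/6J mice aged 6 to 8 weeks that received 800000 GFP+BFP+ leukemia cells without irradiation. The groups differed in the leukemia, which was high in mM-CSF in one, high in sM-CSF in another and without either label in the control. Macrophages of the phenotype GR1-CD115intF4/80+ were collected by sorting on day 18. The labels spell out neither prefix, do not say how the leukemia was made or how M-CSF was raised, and do not say how many mice went into a library. There was 1 library per group, so no difference below has a replicate check, no p-value can be given, and each value describes these 3 libraries. Where 3 values of a gene are given together, they stand in the order control, mM-CSF, sM-CSF.

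Mitochondria keep a ribosome of their own, which translates the few messenger RNAs of mitochondrial DNA, all of them for the respiratory chain and the ATP synthase. Its RNAs are transcribed inside the organelle, but its proteins are encoded in the nucleus, made in the cytosol and imported. Many of them descend from the proteins of bacterial ribosomes, and others are found only in mitochondria. The small subunit reads the messenger RNA, and the large subunit joins the amino acids and passes the chain to the inner membrane. The proteins are needed together, since most of them are parts of one particle.

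Depth and purity bear on every value. The libraries held 9088200 (control), 8570732 (mM-CSF) and 8943847 (sM-CSF) estimated counts, and no member was at 0 in any of them. A member had between 67.7 and 734 estimated reads in the control. In the mM-CSF library the range was 112 to 961, and for sM-CSF it was 81.6 to 807. All 12 macrophage markers examined were at 1 FPKM or more in each library, with summed levels of 2219.7, 1682 and 1318 FPKM. Markers of other cells were present too, and none of those found in the tables was at 0 in any library. In bulk RNA, fewer cells of a type and less RNA per cell cannot be told apart.

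The members were expressed at moderate levels that kept much the same order in each library. Their medians were 25.3 FPKM (control), 40.5 (mM-CSF) and 29.2 (sM-CSF). The control range ran from 5.09 to 94.2 FPKM, that of mM-CSF from 8.52 to 199 and that of sM-CSF from 5.08 to 109. Spearman's rho of the levels across the 78 members was 0.93 between control and mM-CSF, 0.97 between control and sM-CSF and 0.96 between mM-CSF and sM-CSF. These are correlations across genes that share library and gene length, and genes are not replicates. Proteins of one particle were thus measured at messenger levels up to 18.5-fold apart in the control.

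By mean level the first was Mrpl52, a protein of the central protuberance, a lobe of the large subunit. It was at 94.2, 199 and 109 FPKM. Mrps21, a small-subunit protein with a bacterial counterpart, was second at 72.2, 189 and 101 FPKM. Both were highest in the mM-CSF library. With sM-CSF, Mrps21 was 1.40-fold above the control (1.19 to 1.65 in share of counts), where the interval for Mrpl52 included 1 (0.994 to 1.34). Mrpl24 (69.4, 115 and 91.1 FPKM), which lines the peptide exit tunnel, Mrpl42 (62.1, 124 and 71.1 FPKM) and Mrpl30 (54.6, 116 and 65.6 FPKM) came next. The 5 members at the other end were Mrpl17, Mrps31, Mrpl1, Mrpl19 and Mrpl11. Mrpl17, another protein of the exit tunnel, was at 5.09, 9.17 and 5.08 FPKM and Mrps31, a small-subunit protein particular to mitochondria, at 7.79, 8.52 and 7.32.

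**Figure D1:**
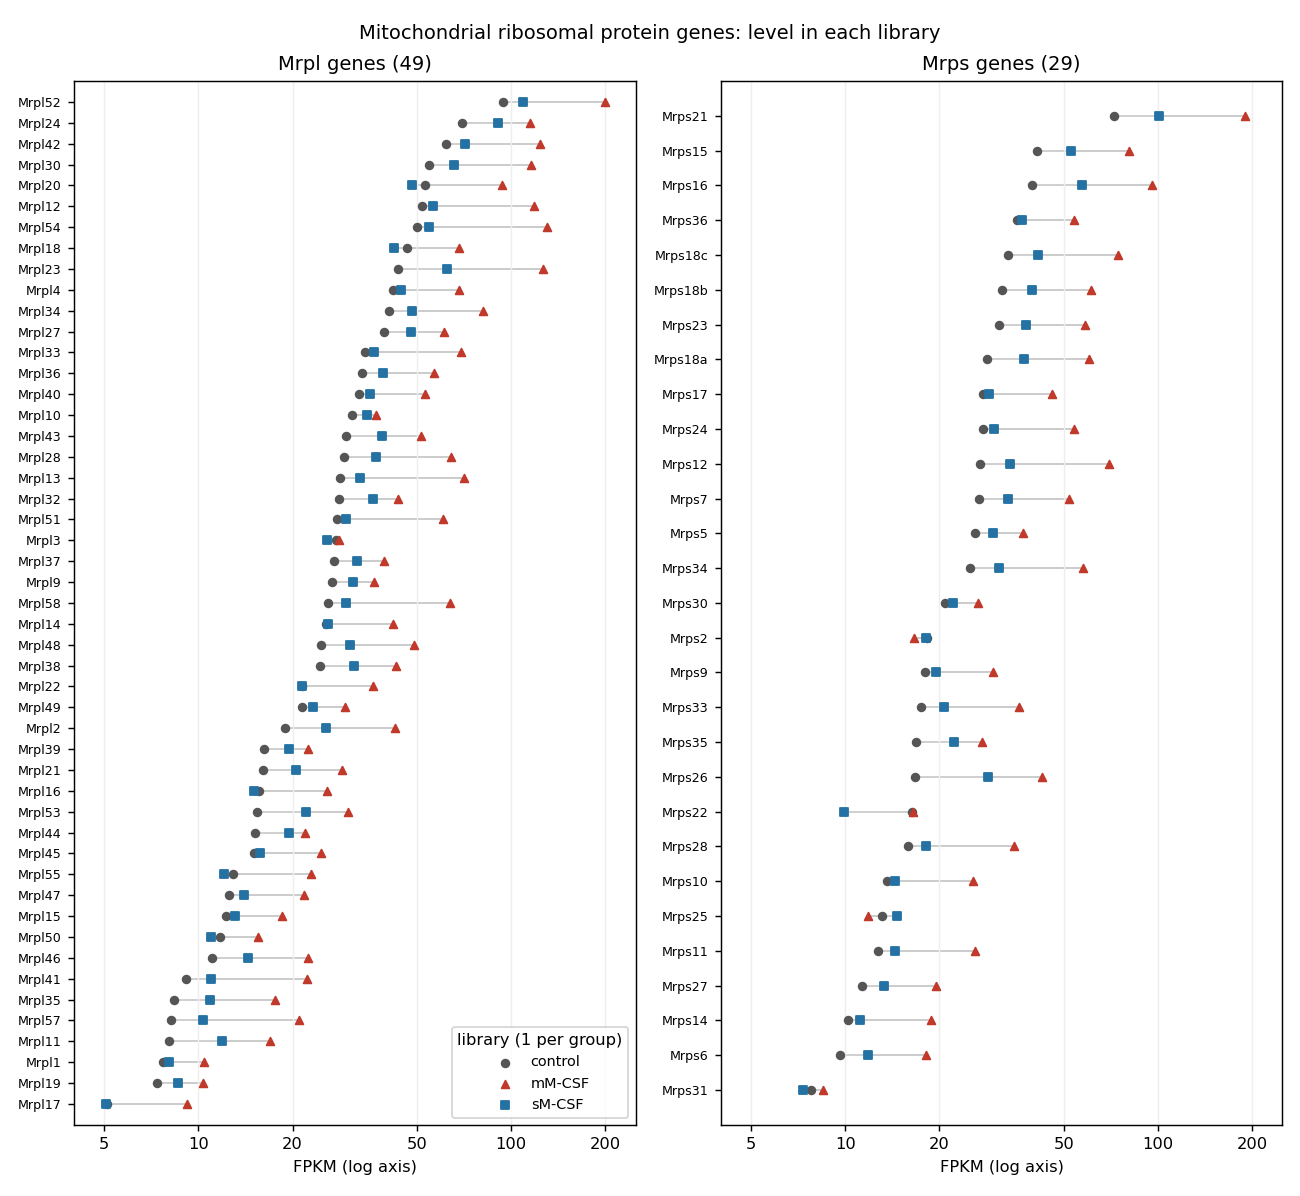
FPKM of each member on a log axis in the control (circle), mM-CSF (triangle) and sM-CSF (square) library, with Mrpl genes on the left and Mrps genes on the right, each in order of the control level. The triangle lies furthest right for 76 of 78 members, and Mrps22 is the member whose sM-CSF value stands furthest left of the other libraries.

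The mM-CSF library was first set against the control. Nearly all members had more FPKM in the mM-CSF library, and the amount was close to that of other genes of like gene length (coding length is taken up below). The median difference of log2(FPKM + 1) (which shrinks the differences of low genes) was 0.80, and 76 of 78 members were above 0, where 46.3% of all 12961 genes at 1 FPKM or more were. A gene is called 2-fold higher or lower below if that difference reached 1 in size with 5 FPKM or more in one of the compared libraries. By this rule 20 members were higher and 0 lower, where 8.97% of 9789 genes were higher and 15.1% lower. The count depends on scaling, since it was 1 with TPM (median difference 0.36), 34 by median-of-ratios scaling and 35 by upper-quartile scaling. As a share of all counts the members together took 0.220% of the control library (exact Clopper-Pearson 95% interval 0.217 to 0.223%) and 0.390% of the mM-CSF library (0.386 to 0.394%). That share was 1.78-fold higher in the mM-CSF library (1.75 to 1.81). All intervals here cover counting error only.

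The differences went with gene length. In the mM-CSF library short genes were higher and long genes lower than in the control, with Spearman's rho of -0.68 between difference and length across 9173 other genes at a mean of 5 FPKM or more. The members are short, with a median length of 1057 bases against 2638 for those genes. For each member, the median difference of the 400 non-member genes nearest in length was therefore subtracted. That like-length median was itself 0.77 at the median over members and ran from -0.96 for the longest member to 1.11 for the shortest. What remained was a median of 0.11, with quartiles of -0.09 and 0.32, against -0.02 over all genes, with quartiles of -0.41 and 0.31. Above their like-length median were 48 of 78 members, or 61.5%, where 48.6% of all genes were. With the like-length median subtracted, 6 members were 2-fold higher and 0 lower, where 2.88% and 7.99% of genes were. Of the 78 members 66 stayed within 0.5 of genes of their length. The share of all genes within 0.5 was not counted, but their quartiles also lay inside that range.

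The trend can be read off the members themselves. Among the 26 shortest (412 to 917 bases) the median difference was 1.03 and 13 were 2-fold higher, where 8.97% of all genes were. Among the 26 of middle length (949 to 1411 bases) it was 0.88 with 4 higher, and among the 26 longest (1424 to 6712 bases) it was 0.50 with 3 higher. The order turned once like-length genes were subtracted, to -0.05, 0.12 and 0.25. The 20 members past 2-fold had a median length of 762 bases, and the 6 that were 2-fold above genes of their length had at least 2321 bases.

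**Figure D2:**
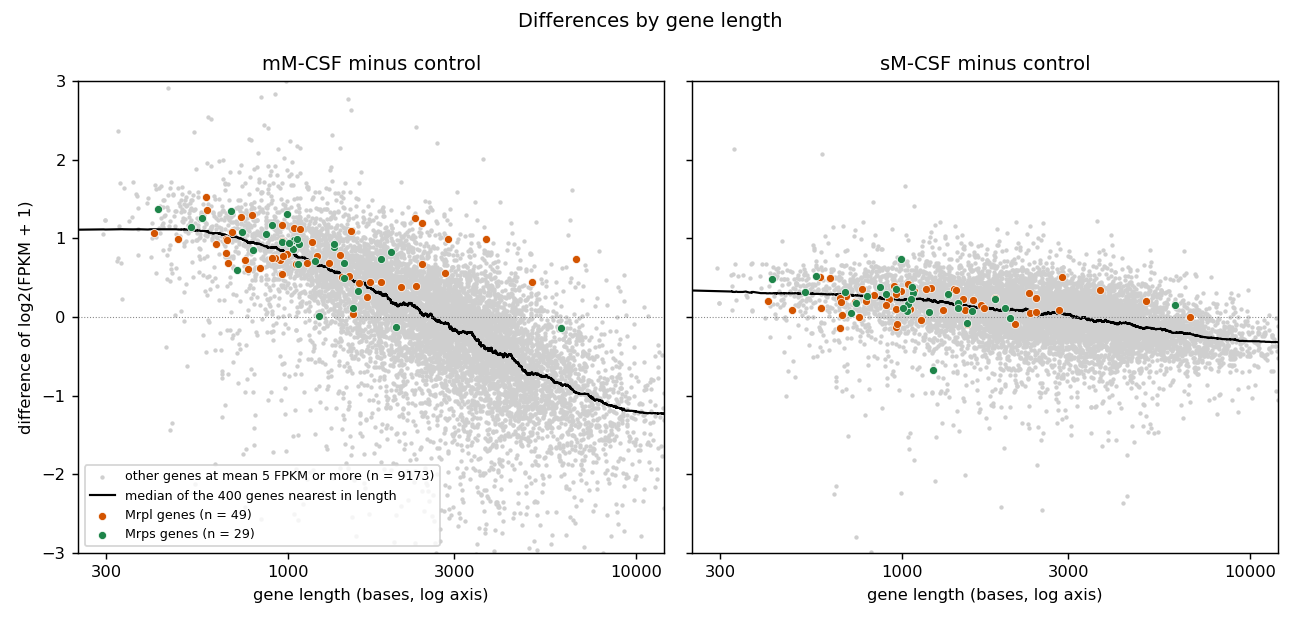
Difference of log2(FPKM + 1) against gene length on a log axis, for mM-CSF minus control on the left and sM-CSF minus control on the right. Grey points are 9173 other genes (a few beyond the axes are not drawn). The black line is the median of the 400 nearest in length, and coloured points are the members. Within 0.5 of the line lie 66 of 78 members on the left and 76 of 78 on the right. Over all genes, the quartiles beyond the line are -0.41 and 0.31 on the left and -0.20 and 0.18 on the right.

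Large-subunit proteins gave both the largest difference before subtraction and the largest after it, in different genes. Mrpl23, at the exit of the peptide tunnel, was at 43.5, 127 and 62.4 FPKM. Its share of counts was 2.93-fold higher in the mM-CSF library than in the control (2.51 to 3.44), the highest ratio among members. The log2 difference was 1.52, of which genes of its length, 582 bases, had 1.09. The stalk of the large subunit, which recruits the translation factors, was represented by 5 members. Of these 2 were 2-fold higher, where 8.97% of all genes were. Mrpl12, the stalk protein itself, was at 52.0, 118 and 56.0 FPKM, and Mrpl54, a neighbour of the stalk particular to mitochondria, at 50.1, 130 and 54.4. Both were close to the control in the sM-CSF library, and against genes of their length the mM-CSF differences came to 0.33 and 0.27. Mrpl10, which anchors the stalk, differed by 0.25 (31.0, 37.0 and 34.5 FPKM).

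Of the 9 exit tunnel members 1 was 2-fold higher, with a median of 0.72, and of the 9 central protuberance members 2 were, with a median of 0.79, beside 8.97% of all genes that were 2-fold higher. Beyond genes of like length the medians of these lists were 0.14 and -0.04. The exit tunnel values ran from -0.25 to 1.70 and those of the central protuberance from -0.31 to 0.27. Mrpl45, which holds the ribosome at the inner membrane, was at 15.1, 24.6 and 15.8 FPKM, 0.64 above genes of its length in mM-CSF minus control. Mrpl58, a peptidyl-tRNA hydrolase that rescues stalled ribosomes, was at 25.9, 63.7 and 29.7 FPKM, a difference of 1.27 that was 0.27 against genes of like length. Among all 30 large-subunit proteins with a bacterial counterpart 6 were 2-fold higher and the like-length median was -0.03. Among the 21 particular to mitochondria 7 were, and it was 0.14. Mrps18a and Mrps30 are counted there, since despite their symbols their products sit in the large subunit.

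Small-subunit proteins were taken next. By symbol, 21 of 29 Mrps genes (72.4%) and 27 of 49 Mrpl genes (55.1%) lay above genes of their length in mM-CSF minus control. The difference between these shares was not tested. Of the 16 with a bacterial counterpart 5 were 2-fold higher, where 8.97% of all genes were, and the median of the 16 was 0.94. Above genes of their length lay 13 of the 16, where 48.6% of all genes did. Over all 16 the median beyond like length was 0.12. Of the 10 particular to mitochondria 2 were 2-fold higher, with a median of 0.82 and one of 0.26 against genes of their length. Mrps12, at the decoding centre, was at 26.9, 69.7 and 33.7 FPKM, an mM-CSF to control difference of 1.34, or 0.32 beyond genes of its length. The mM-CSF value was the highest by far, and the sM-CSF value lay somewhat above the control. The 3 Mrps18 paralogues had like values, with Mrps18a at 28.5, 60.4 and 37.3 FPKM, Mrps18b at 31.7, 61.3 and 39.5, and Mrps18c at 33.2, 74.8 and 41.5. Their differences beyond genes of like length were 0.16, 0.17 and 0.04. Mrps36, whose product is now known as a subunit of the oxoglutarate dehydrogenase complex and not of the ribosome, was at 35.5, 54.1 and 36.9 FPKM and lay below genes of its length by 0.42.

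A few members were level or slightly lower. Mrps2 was at 18.3, 16.6 and 18.1 FPKM, and Mrps25 at 13.2, 11.8 and 14.7. These were the 2 members lower in the mM-CSF library than in the control, and the counting interval of each ratio included 1 (0.775 to 1.07 and 0.810 to 1.01). Mrps25 overlaps another expressed gene, Nr2c2, and its value is uncertain. Mrpl3, next to the peptidyl transferase centre, was level at 27.4, 28.1 and 25.7 FPKM where genes of its length were 0.47 higher. Furthest below genes of their length were Mrps22 (-0.64), Mrpl3 (-0.44), Mrps36 (-0.42), Mrps31 (-0.35), Mrpl14 and Mrpl32 (both -0.34). In all, the counting interval of the mM-CSF to control ratio lay above 1 for 73 members, below 1 for 0 and included 1 for 5, where it lay above 1 for 32.7% and below 1 for 40.5% of all genes.

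The 6 members that stood 2-fold above genes of their length were all large-subunit genes, and all were long for this group. Mrpl17 (6712 bases) was at 5.09, 9.17 and 5.08 FPKM, Mrpl35 (3695 bases) at 8.37, 17.6 and 10.9, and Mrpl19 (5016 bases) at 7.37, 10.4 and 8.59. In the mM-CSF library Mrpl17 stood 1.70 above genes of its length, Mrpl35 1.39 and Mrpl19 1.15, where other genes of such length were lower than in the control. Mrpl41 (9.11, 22.2 and 10.9 FPKM), Mrpl57 (8.19, 20.98 and 10.4 FPKM) and Mrpl11 (8.04, 16.9 and 11.9 FPKM) followed, at 1.15, 1.13 and 1.08. Of the 6, only Mrpl41 and Mrpl57 were also among the 20 members past 2-fold before subtraction. Counts of Mrpl41 alone were whole in all 3 libraries, so those of the other 5 were partly assigned by estimate and their values are uncertain. Mrpl19 and Mrpl57 also overlap other expressed genes (Gcfc2 and Ska3).

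All 6 were nearer to other genes when coding length took the place of gene length. Their coding sequences are short, from 306 bases in Mrpl57 to 876 in Mrpl19, by the GENCODE M21 annotation. Against the 400 genes nearest in coding length, a choice made after the values were seen, Mrpl17 stood 0.20 above, Mrpl19 0.15, Mrpl57 0.40, Mrpl41 0.46, Mrpl35 0.50 and Mrpl11 0.54. No member was 2-fold away on this scale, and Mrpl23 came nearest at 0.999. The members as a whole moved the other way, since 67 of 78 lay above genes of like coding length, where 49.0% of all genes did, with a median of 0.38 in place of 0.11. Mrps25, with 6076 bases of gene and 513 of coding sequence, went from 0.71 above to 0.67 below. How far the members differ from other genes in the mM-CSF library therefore depends on which length is held equal, while the share above remained over that of all genes with either.

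**Figure D3:**
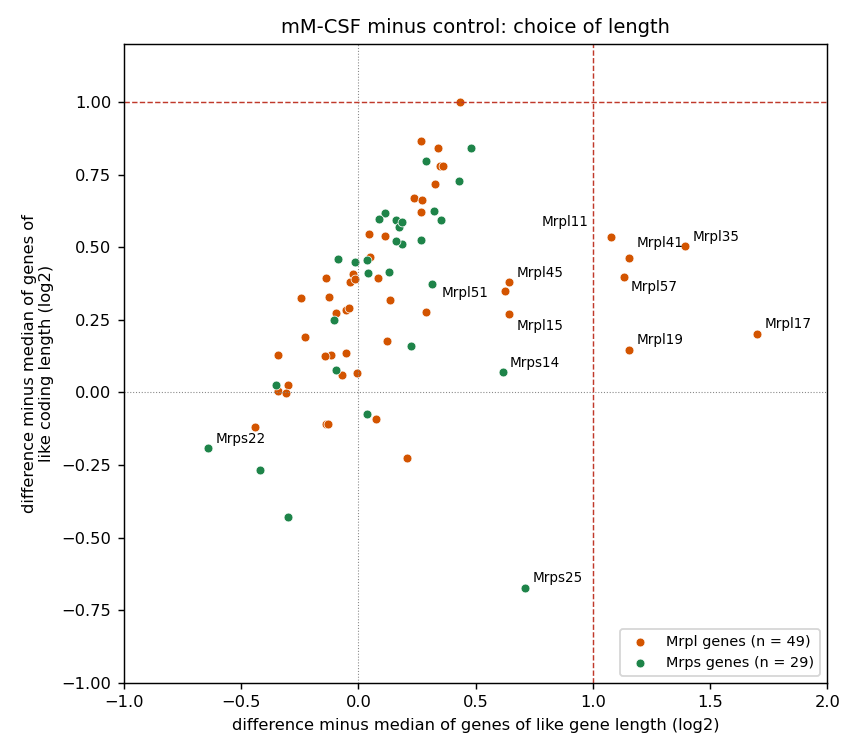
Each point is a member in mM-CSF minus control, with its difference beyond genes of like gene length on the x axis and beyond genes of like coding length on the y axis, and dashed lines at a 2-fold difference. The 6 Mrpl genes right of the vertical line lie between 0.15 and 0.54 on the y axis, and members at least 0.5 from 0 on the x axis are named.

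Markers of other cell types differed between these libraries as well. The marker counts stand beside 8.97% of all genes that were 2-fold higher and 15.1% lower. Of the 12 macrophage markers 1 was 2-fold higher and 3 lower in the mM-CSF library. The 8 plasma cell markers summed to 1438 FPKM in the control library and to 4447 with mM-CSF, with 5 of 8 genes 2-fold higher. The 7 myeloid granule markers found in the tables summed to 647 and 1378 FPKM (6 of 7 higher), the 9 T cell markers to 290 and 611 (5 of 9 higher, 1 lower) and the 11 B cell markers to 1491 and 2901 (3 of 11 higher, 1 lower). The 12 neutrophil markers summed to 87.1 and 297 FPKM, with 5 higher and 1 lower. Erythroid markers went from 4907 to 3954 FPKM, with 4 of 10 lower, and cell cycle genes from 792 to 828, with 1 of 14 lower. Beyond genes of like length 3 plasma cell, 5 myeloid granule, 4 T cell and 4 neutrophil markers were 2-fold higher and 0 lower. Of the macrophage markers 1 was higher and 2 lower, and 6 erythroid markers were lower. No B cell or cell cycle marker passed 2-fold on this scale, where 2.88% of all genes were higher and 7.99% lower. The part of these markers in the members' difference was not tested.

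The sM-CSF library was set against the same control library, so both comparisons share its values. Members were slightly higher, with a median difference of 0.21, and no member passed 2-fold in either direction, where 0.785% of 9683 genes were higher and 1.63% lower. With the like-length median subtracted there were again 0 in both directions, where 0.496% and 1.81% of genes were. Above 0 were 67 of 78 members, where 52.1% of all genes were, and the members' share of counts was 0.254% (0.250 to 0.257%), 1.15-fold that of the control (1.13 to 1.18). Against genes of like length the median was 0.02, and 43 of 78 members, 55.1%, lay above, where 49.5% of all genes did. That median had no stable sign, and it was -0.0253, with 27 of 59 above, without members that overlap another expressed gene, and -0.00278 without those whose counts are not whole. With TPM the median difference before subtraction was 0.0701. Their quartiles of -0.10 and 0.14 were closer together than those of all genes, -0.20 and 0.18. The counting interval of the ratio lay above 1 for 34 members, included 1 for 43 and lay below 1 for Mrps22 alone, where it lay above 1 for 22.8% and below 1 for 24.3% of all genes.

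Mrps22, a small-subunit protein particular to mitochondria, was at 16.4, 16.5 and 9.93 FPKM. The sM-CSF value stood apart from the other 2, which were level. Its estimated counts of 181, 173 and 108 were whole, and its share of counts in the sM-CSF library was 0.606-fold that of the control (0.473 to 0.774). It lay 0.87 below genes of its length, and the next members were Mrpl20 (-0.42), Mrpl18 (-0.35), Mrpl55 (-0.31), Mrpl22 and Mrpl16 (both -0.27). The highest was Mrps26, another small-subunit protein particular to mitochondria, at 16.7, 42.6 and 28.5 FPKM. Its share of counts in the sM-CSF library was 1.71-fold that of the control (1.39 to 2.12), the highest ratio of this comparison, and it lay 0.53 above genes of its length. Mrpl11 (0.46), Mrpl35 (0.40), Mrps25 (0.35), Mrpl19 (0.34) and Mrpl57 (0.23) followed.

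By symbol, the median difference was 0.20 over 49 Mrpl and 0.22 over 29 Mrps genes. Beyond like-length genes, small-subunit proteins with a bacterial counterpart had a median of 0.01 and those particular to mitochondria one of 0.09, and in the large subunit the medians were -0.01 and 0.07. Against genes of like coding length 56 of 78 members lay above, where 49.2% of genes did, with a median of 0.08. The marker sums in the sM-CSF library were 1494 FPKM for plasma cells, 627 for myeloid granules, 86.5 for neutrophils, 2703 for B cells, 511 for T cells, 3533 for erythroid cells and 607 for the cell cycle. The lists with markers past 2-fold against the control were B cells (3 of 11 higher), T cells (4 of 9 higher), macrophages (2 of 12 lower), erythroid cells (2 of 10 lower) and the cell cycle (1 of 14 lower). Of all genes 0.785% were higher and 1.63% lower. Beyond genes of like length these counts were 0, 1, 1, 3 and 0 in that order, where 0.496% of genes were higher and 1.81% lower. The part of the markers in the members' values was not tested.

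The mM-CSF and sM-CSF libraries were also set against each other, and the difference was again general. It was near that of genes of like gene length, and less near that of genes of like coding length. Of 78 members 7 were 2-fold higher in the mM-CSF library and 0 lower, where 3.79% of 9574 genes were higher and 8.73% lower. The median difference was 0.63, or 0.11 beyond genes of like length, with 51 of 78 members above, where 48.6% of all genes were. Above 0 were 76 of 78, where 42.8% of genes were. Beyond genes of like length 1 member, Mrpl17, was 2-fold higher and 0 lower, where 2.03% and 4.71% of genes were. Against genes of like coding length 68 of 78 lay above, where 49.6% of genes did, with a median of 0.31. The 7 were Mrpl12, Mrpl13, Mrpl23, Mrpl51, Mrpl54, Mrpl58 and Mrps12. Mrpl54 had the highest ratio of shares, 2.40 (2.08 to 2.77), and Mrpl12 one of 2.12 (1.90 to 2.37). Of these 7, the 3 with the highest sM-CSF value were Mrpl23, Mrpl12 and Mrpl54, at 62.4, 56.0 and 54.4 FPKM, against 127, 118 and 130 in the mM-CSF library. Beyond genes of their length the highest were Mrpl17 (1.51), Mrpl41 (1.00), Mrpl35 (0.95), Mrpl57 (0.94), Mrpl19 (0.86) and Mrpl51 (0.70). The lowest were Mrpl32 (-0.44), Mrpl27 (-0.35), Mrpl53 (-0.33), Mrpl24 (-0.30), Mrps35 (-0.26) and Mrps36 (-0.20). Between these libraries 6 of 8 plasma cell, 5 of 7 myeloid granule and 5 of 12 neutrophil markers were 2-fold higher with mM-CSF. Lower were 1 of 12 neutrophil, 1 of 11 B cell and 1 of 9 T cell markers. Of the 12 macrophage markers 2 were higher and 1 lower, and no erythroid marker passed 2-fold. Of the 14 cell cycle genes 1 was higher, and all 14 lay above genes of like length. The part of these markers in the members' difference was not tested.

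Across all 3 libraries the order of values was the same for most members. In 66 of 78 (84.6%) the control was lowest, the sM-CSF library between and the mM-CSF library highest, an order held by 27.4% of all genes at 1 FPKM or more. The mM-CSF library was highest for 76 of 78, where it was for 37.7% of all genes, and the exceptions were Mrps2 and Mrps25. In the remaining 10 members, among them Mrpl18, Mrpl20 and Mrps22, the sM-CSF value was at or below the control. These orders were taken on FPKM without subtracting genes of like length, and the share of like-length genes that held them was not counted. From control to sM-CSF the members' median was 0.02 beyond like length, without a stable sign. The counting interval of that ratio lay above 1 for 34 members, included 1 for 43 and lay below 1 for 1.

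The promoters of the members were searched for short letter strings of 3 transcription factors. NRF1, GABP (a factor of the ETS family) and YY1 are transcription factors known to act on many nuclear genes for mitochondrial proteins. RefSeq windows of 300 bases, 250 before and 50 after the start (GRCm38.p6), were found for 69 of the 78 members, and Mrpl4, Mrpl13, Mrpl15, Mrpl19, Mrpl38, Mrpl54, Mrps28, Mrps34 and Mrps35 had none in the table. On either strand, the NRF1 letters (GCGCA, any base, then GCGC) were in 13 of 69 members (18.8%), in 12.6% of 7381 other genes at a mean of 5 FPKM or more and in 5.19% of all 27025 genes with a window. The ETS letters CCGGAAGT were in 12 members (17.4%), 10.6% and 4.31%, and the YY1 letters AAGATGGC in 12 members (17.4%), 6.04% and 3.19%. At least 1 of the 3 was in 34 of 69 members (49.3%) and in 26.5% of the other expressed genes. A match is a description of the letters, not a site.

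Members with and without the letters were compared by their medians. Beyond genes of like length, the median of mM-CSF minus control was 0.19 with and 0.04 without the NRF1 letters, -0.002 and 0.11 for the ETS letters, and 0.14 and 0.04 for the YY1 letters. In sM-CSF minus control the same pairs were 0.09 and 0.01, -0.02 and 0.03, and 0.06 and 0.02. The windows of the members furthest above and below genes of their length in the comparisons with the control are shown, as the 250 bases before the start read 5′ to 3′ on the gene's strand, with matches to the letters searched in capitals. Mrpl17 was furthest above with mM-CSF, Mrps26 was so with sM-CSF, and Mrps22 was furthest below in both.
Mrpl17, chr7:105811088-105811337, minus strand, GRCm38.p6: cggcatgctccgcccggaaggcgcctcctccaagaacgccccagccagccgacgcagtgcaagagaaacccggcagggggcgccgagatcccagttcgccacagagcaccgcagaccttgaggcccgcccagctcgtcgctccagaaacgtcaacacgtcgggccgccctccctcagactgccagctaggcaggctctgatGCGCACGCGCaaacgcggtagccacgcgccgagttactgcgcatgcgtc
Mrps26, chr2:130563507-130563756, plus strand, GRCm38.p6: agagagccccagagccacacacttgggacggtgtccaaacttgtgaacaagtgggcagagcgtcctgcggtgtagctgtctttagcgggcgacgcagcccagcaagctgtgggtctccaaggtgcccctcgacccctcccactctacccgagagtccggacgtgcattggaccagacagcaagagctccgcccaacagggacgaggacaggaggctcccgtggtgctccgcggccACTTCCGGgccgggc
Mrps22, chr9:98601680-98601929, minus strand, GRCm38.p6: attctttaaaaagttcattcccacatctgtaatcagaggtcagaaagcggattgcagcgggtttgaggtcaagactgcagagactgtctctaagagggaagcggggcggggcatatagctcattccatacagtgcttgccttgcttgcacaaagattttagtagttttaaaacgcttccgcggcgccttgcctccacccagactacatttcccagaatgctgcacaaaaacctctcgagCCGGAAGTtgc
The capitals mark the NRF1 letters in Mrpl17 and the ETS letters in Mrps22 and, on the opposite strand, in Mrps26. Mrps26 also has overlapping matches to the NRF1 letters, one across the start and one after it, which are not shown. Whether the letters go with the direction of a difference was not tested.

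Other genes of mitochondrial translation were compared as lists. Of the 5 ribosomal proteins with other symbols 2 were 2-fold higher in the mM-CSF library than in the control, where 8.97% of all genes were. The median of the 5 was 0.96, or 0.42 beyond genes of like length. Aurkaip1 was at 39.6, 84.8 and 48.2 FPKM, Chchd1 at 33.1, 68.1 and 35.8, and Gadd45gip1 at 43.6, 85.8 and 49.5. Dap3, a GTP-binding protein of the small subunit, was at 12.2, 19.3 and 13.6 FPKM and lay 1.25 above genes of its length, 4624 bases, in the mM-CSF library. Ptcd3 was level at 18.6, 17.8 and 18.96 FPKM.

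Factors that work with the ribosome differed less before subtraction, and they are longer genes. The counts that follow stand beside 8.97% of all genes that were 2-fold higher and 15.1% lower. Of 15 translation factors 1 was 2-fold higher in mM-CSF minus control and 0 lower, with a median of 0.11 (-0.04 beyond like length). That gene was Slirp, an RNA-binding partner of Lrpprc, at 21.9, 49.05 and 24.7 FPKM, and Lrpprc was at 17.4, 10.52 and 14.5. The initiation factor gene Mtif3 lay 1.53 above genes of its length (9.17, 16.8 and 12.4 FPKM), the translational activator Taco1 1.07 below (8.89, 6.07 and 8.94 FPKM) and the elongation factor gene Gfm1 0.62 below (18.5, 11.5 and 15.0 FPKM). Of 28 assembly and rRNA modification factors 2 were higher and 0 lower, with medians of 0.32 and 0.12. Those 2 were the small-subunit assembly factor Rbfa (21.2, 47.4 and 32.3 FPKM) and Mpv17l2 (19.6, 40.6 and 27.0 FPKM). None of the 20 mitochondrial aminoacyl-tRNA synthetase genes, including the glutamyl-tRNA amidotransferase genes, and none of the 8 transcription and nucleoid genes passed 2-fold, with medians of 0.12 and 0.30. Polrmt, the mitochondrial RNA polymerase, was at 10.1, 13.4 and 13.6 FPKM and Tfam, which packs mitochondrial DNA, at 10.4, 12.4 and 11.0.

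In sM-CSF minus control no gene of these 5 lists passed 2-fold, where only 0.785% of all genes were higher and 1.63% lower. The medians were 0.15, 0.08, 0.15, 0.18 and 0.11 in the order given, or 0.06, 0.01, 0.09, 0.14 and 0.15 beyond like length. Of 8 measured regulators of nuclear genes for mitochondria 1 was 2-fold lower in the mM-CSF library than in the control, where 15.1% of all genes were. This was Gabpa, a subunit of GABP, at 17.5, 7.96 and 13.6 FPKM, an mM-CSF to control difference of -1.05 that was -0.34 beyond genes of its length. Gabpb1 was at 16.2, 11.8 and 15.4 FPKM, Nrf1 at 17.99, 15.2 and 16.8 and Yy1 at 45.5, 35.4 and 42.0. Beyond genes of like length their mM-CSF to control differences were -0.43, -0.007 and -0.47. Over the 8 regulators the median difference was -0.29, or -0.11 beyond like length. Above 0 were 2 of the 8, where 46.3% of all genes were. The messenger RNAs of mitochondrial DNA were not analysed here.

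**Figure D4:**
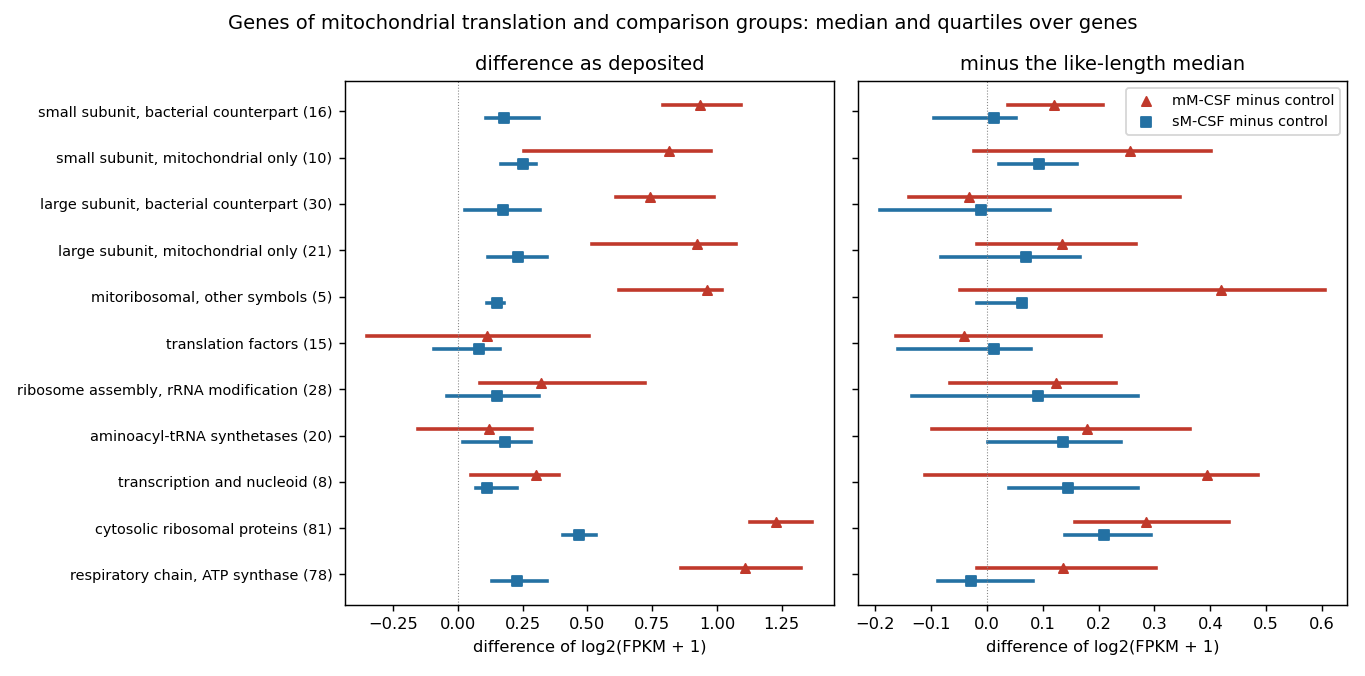
Median (marker) and quartiles (bar) over the genes of each list for mM-CSF minus control and sM-CSF minus control, as differences of log2(FPKM + 1) on the left and with the like-length median subtracted on the right; the number of measured genes is in brackets. On the left the 4 mitoribosome lists have medians between 0.74 and 0.94 in mM-CSF minus control, and on the right between -0.03 and 0.26.

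A pair of related groups of nuclear genes with short messages were set beside the members; these groups were chosen with the data in view, and differences between them were not tested. The 81 cytosolic ribosomal protein genes had a median difference of 1.23 in mM-CSF minus control and 0.28 beyond like length, where 78 of 81 lay above. The 78 nuclear-encoded respiratory chain and ATP synthase genes had medians of 1.11 and 0.14, with 56 of 78 above. Of all genes 48.6% lay above their like-length median in that comparison and 49.5% in sM-CSF minus control. In sM-CSF minus control the medians beyond like length were 0.21 for the cytosolic ribosome, with 78 of 81 above, and -0.03 for the respiratory chain, with 35 of 78 above. The members, at 0.11 and 0.02 with 48 and 43 of 78 above, had medians nearer to those of the respiratory chain genes in both comparisons with the control. In mM-CSF minus sM-CSF the member median of 0.11 was nearer to that of the cytosolic ribosome (0.09) than to that of the respiratory chain (0.19). Against genes of like coding length the medians in mM-CSF minus control were 0.38 for the members, 0.45 for the respiratory chain and 0.67 for the cytosolic ribosome, and in sM-CSF minus control 0.08, 0.08 and 0.33.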

How the data were processed

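Per the file headers, the deposited tables list genes by NCBI gene ID with a length in bases, an expected count and an FPKM. Expected counts are estimates of reads per gene made by the authors and are not always whole. FPKM values were scaled by the authors to length and library before they were deposited. The submitters' processing notes name Bowtie2 (2.2.5) and RSEM without a role. Build, annotation and use of strand are not given in the sources used here. RNA input was 1 ug and sequencing was on a BGISEQ-500, per the labels' protocols.

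Symbols came from a RefSeq gene table of GRCm38.p6 (17561 of 17615 genes matched), and a gene absent from a table was taken as 0. Differences were taken on log2(FPKM + 1), with a pseudocount of 1. Each gene's like-length median was that of the 400 non-member genes nearest in gene length, from 9173 at a mean of 5 FPKM or more. Ratios of count shares carry exact conditional (Clopper-Pearson) 95% intervals, which cover counting error only. A count was taken as whole within 0.005 reads, which held in all libraries for 59 members; the other 19 are uncertain, as are 19 whose gene span overlaps another expressed gene. With 1 library per group no test was run.

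Named members were the 6 highest and 6 lowest in each comparison beyond like-length genes, the 5 highest and 5 lowest by mean FPKM, and members of fixed structural groups. From each of the other lists up to 3 genes were taken. Mrpl42, Mrpl30, Mrps12, Mrps2, the members counted as called, Lrpprc, Aurkaip1, Chchd1, Slirp, Rbfa and Mpv17l2 where they fell outside the rule were added after their values were seen. Nrf1 also fell outside the rule. The members and lists were chosen with earlier results of these data known. Calculations used Python 3.11.15 with numpy 2.4.6, pandas 2.3.3 and scipy 1.17.1, with figures by matplotlib 3.10.9, and were checked on simulated data. Alternatives covered pseudocount, scaling, minimum, size rule, like-length reference and choice of members.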

Additional observations from a re-analysis of the deposited data

How the results depend on the processing

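Of 19 alternatives 14 were planned and 5 were chosen after seeing the data (coding length, share of counts, equal numbers of shorter and longer genes, and leaving out members that overlap another expressed gene or have counts that are not whole). No paired analysis was possible because each group had 1 library, and for the same reason no library could be left out. In mM-CSF minus control the median difference was 0.70 with a pseudocount of 5 and 0.36 with TPM, and 0.38 beyond genes of like coding length. The count of members 2-fold higher was 1 with TPM, 34 by median-of-ratios scaling, 35 by upper-quartile scaling, and 60 at 1.5-fold. Beyond like length it was 2 with a pseudocount of 5, 11 at 1.5-fold, 0 with coding length and 1 without members whose counts are not whole, and 1 member was lower at 1.5-fold. In mM-CSF minus sM-CSF the median was 0.56 with a pseudocount of 5, 0.32 with TPM, 0.77 by median-of-ratios scaling, 0.74 by upper-quartile scaling, and 0.31 beyond genes of like coding length. Members 2-fold higher numbered 3 with a pseudocount of 5, 0 with TPM, 16 by median-of-ratios scaling, 13 by upper-quartile scaling, and 46 at 1.5-fold. Beyond like length they numbered 3 with a pseudocount of 0.1, with share of counts and within expression bins, 2 with TPM, both scalings and reference genes at 1 FPKM, 10 at 1.5-fold, and 0 at 10 FPKM, with coding length and without members whose counts are not whole. In sM-CSF minus control the median was 0.0701 with TPM. Beyond like length it changed sign to -3.40e-05 within expression bins, -0.0253 without overlapping members (27 of 59 above) and -0.00278 without members whose counts are not whole, and 1 member was higher and 1 lower at 1.5-fold. Apart from the settings that change what is counted, the causes were not tested. TPM moved the median of all genes from -0.07 to -0.49 in mM-CSF minus control, from 0.02 to -0.11 in sM-CSF minus control and from -0.11 to -0.40 in mM-CSF minus sM-CSF. Beyond like length, 48, 54 and 50 of 78 members kept their sign under each of the 17 to 19 alternatives run on them, some of which cannot change a member's value, in mM-CSF minus control, sM-CSF minus control and mM-CSF minus sM-CSF. With 1 library per group, the intervals given cover counting error only.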
